A study of Mus musculus with 14 samples.

Results

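The regions described here are 2804 H3K4me3 regions of mouse neurosphere cultures that carried a FLAG peak in every culture studied. FLAG marked an epitope-tagged histone H3.3. The peaks of the 6 H3K4me3 lists on chromosomes 1 to 19 were merged where they shared at least 1 bp. A region was kept when all 6 H3K4me3 lists had a peak in it, when its mean covered length over those lists was under 4000 bp, and when a peak of each of the 6 FLAG lists overlapped it by at least 1 bp. Of 41556 merged regions, 21864 were shared by all 6 H3K4me3 lists and 20956 of these were under 4000 bp, so that the members made up 13.4% of the shared regions under that limit. The members were thus chosen by measured values, the presence of peaks in all 12 lists and the mean H3K4me3 breadth. Where FLAG presence and mean breadth of members and other regions are given below, they describe that choice, with no test.

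The cells were hindbrain neural stem cells of e15.5 embryos, kept in culture as neurospheres. All 6 carried Nestin-cre, a recombinase driven in neural progenitors, together with 1 allele of H3f3a that cre switches to a tagged histone. In 3 cultures this allele was H3f3aLSL-K27M-Tag/+, whose product has methionine in place of lysine 27 (K27M-Tag). In the other 3 it was H3f3aLSL-WT-Tag/+, the tagged wild-type histone (WT-Tag). By the labels 5 cultures were female and 1, WT-Tag replicate 3, was male. Each culture gave 1 FLAG and 1 H3K4me3 library, n = 3 per genotype and antibody. No untagged culture was used here, so the FLAG signal of cells without the tag is not known. The gene names and DNA sequence under the regions were not used here, and regions are named by their position in the mouse build mm9.

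H3.3 is the replacement variant of histone H3. It is placed in chromatin outside DNA replication and turns over fast at promoters and enhancers in use. H3K4me3, trimethylation of lysine 4 of H3, marks the starts of active and poised genes, where it usually lies on the nucleosomes on either side of a nucleosome-poor start site. The K27M substitution of H3.3 occurs in diffuse midline gliomas of children and inhibits the methyltransferase complex that places H3K27me3.

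The lists hold no read totals. The number of fragments stacked at each summit was recovered from the deposited fold enrichment and p, as was the background coverage of each list, which was 2.77 to 3.6 fragments per base over the 12 lists. Height below is the summit pileup divided by that background, and breadth is the number of bases of a region that peaks of 1 list cover. Height is thus relative to its own library. Breadth is a count of bases without scaling, and it rests on the peaks called in that list. The Drosophila chromatin that was added for scaling H3K4me3 between samples is not carried in the lists, so a uniform gain or loss of the mark could not be read. The 12 lists of peaks also differ in length, with 57061 to 87258 FLAG peaks on the autosomes in K27M-Tag and 32466 to 46880 in WT-Tag.

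The members had weaker H3K4me3 than most shared regions. Their median height, averaged over the 6 cultures, was 17.2 times background, against 38.5 for all shared regions under 4000 bp, 25.4 for the 6652 of them without any FLAG peak and 55.3 for the 3501 with FLAG in the 3 K27M-Tag lists only. The middle 50% of members lay between 9.05 and 53.1 times background. In K27M-Tag replicates 1, 2 and 3 the median H3K4me3 height was 19.8, 20.4 and 18.6 at the members and 48.3, 51.3 and 43.4 at the other shared regions. In WT-Tag replicates 1, 2 and 3 it was 13.8, 17.8 and 15.7 at the members and 29.1, 41.7 and 38.3 at the others. The members were the lower set in all 6 cultures. Their breadth was less apart, with a median of 1301 bp for the members, 1371 bp for all shared regions under 4000 bp and 959 bp for regions without FLAG.

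The shared regions were split by mean H3K4me3 height into 4 height groups of 5239 each, with limits at 14.4, 38.5 and 63.8 times background. Members made up 24.5% of the lowest height group (1282 regions), 9.98% of the second (523), 10.7% of the third (558) and 8.42% of the highest (441). Regions with FLAG in the 3 K27M-Tag lists only followed the opposite order, with 9.47% of the lowest height group and 23.8% of the highest. The shape of the members' distribution followed the WT-Tag lists. A FLAG peak in all 3 WT-Tag lists, whatever the K27M-Tag lists held, was found at 24.9%, 10.3%, 11% and 9.01% of the height groups from lowest to highest. A FLAG peak in all 3 K27M-Tag lists was found at 48.8%, 34.3%, 50.4% and 48.7%. Of the 2891 regions with FLAG in all 3 WT-Tag lists, 97.0% had it in all 3 K27M-Tag lists too, whereas 29.4% of the 9542 with FLAG in all 3 K27M-Tag lists had it in all 3 WT-Tag lists. With only the highest-scoring 50% of each FLAG list and all H3K4me3 peaks, members were 14.8% of the lowest height group and 3.70% of the highest, and with equal list sizes 18.9% and 5.32%. With the highest-scoring 50% of the H3K4me3 lists as well, which removes weak H3K4me3 regions and redraws the groups, 599 members were left, at 4.98% of the lowest height group and 3.63% of the highest.

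**Figure D1:**
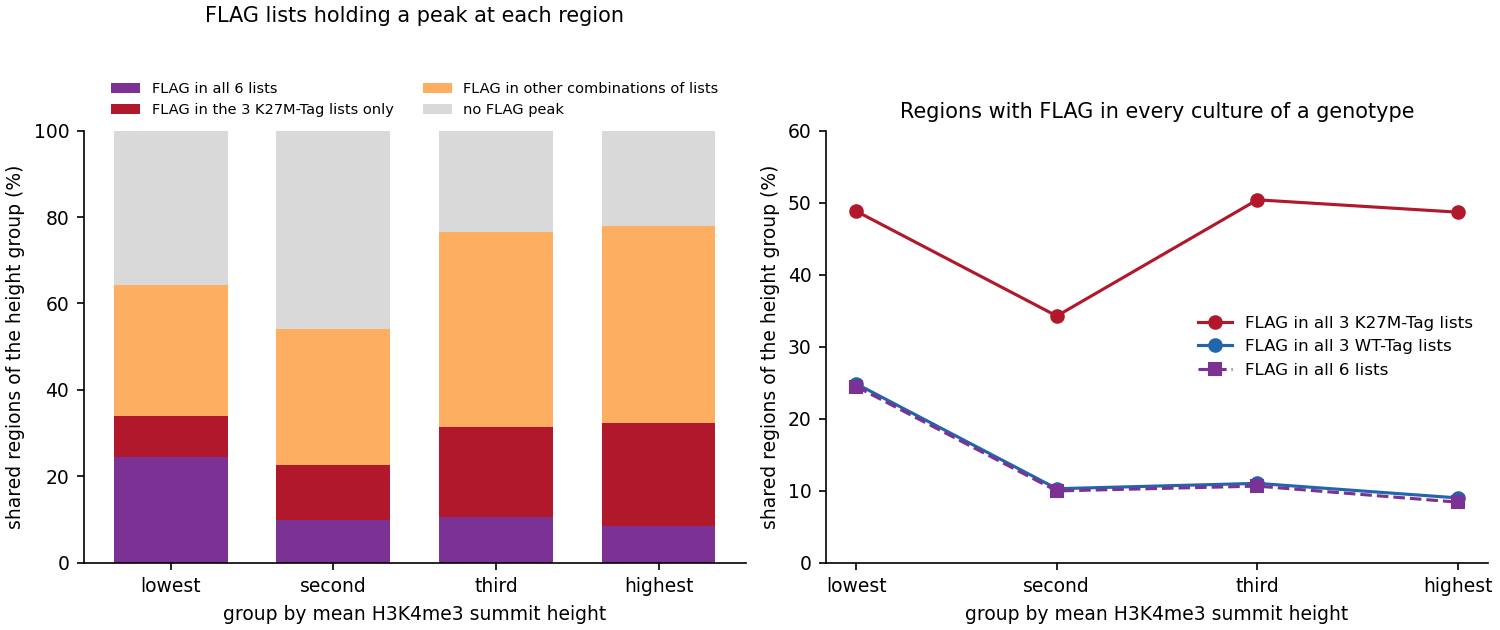
Shared H3K4me3 regions under 4000 bp by group of mean H3K4me3 summit height (x axis), as a percent of the 5239 regions of a group (y axis). Left, stacked bars by which FLAG lists hold a peak. Right, points for regions with FLAG in all 3 lists of a genotype or in all 6 lists. The members fall from 24.5% of the lowest height group to 8.42% of the highest, close to the line for the WT-Tag lists, while the K27M-Tag line stands at 48.8% and 48.7% at the ends.

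FLAG covered more of the members in the K27M-Tag cultures. The median share of a member's length under FLAG was 78.7%, 70.4% and 82.4% in K27M-Tag replicates 1, 2 and 3 and 26.0%, 37.3% and 35.5% in WT-Tag replicates 1, 2 and 3. The 3 K27M-Tag values all lay above the 3 WT-Tag values. The group values were 77.2% ± 6.14 (SD, n = 3) and 32.9% ± 6.08 (SD, n = 3). The median FLAG height was 10.8, 9.28 and 10.8 times background in the K27M-Tag cultures and 7.12, 7.54 and 7.51 in the WT-Tag cultures, again without overlap. Each height is that of the highest FLAG peak touching the member, wherever its summit lies. That summit lay inside the region at 86.3% of members for K27M-Tag and at 88.9% for WT-Tag, as means of 3 cultures. Per base, 51.8% of the 5.35 Mb of the members lay under FLAG in all 3 K27M-Tag lists and 18.5% in all 3 WT-Tag lists. Of the bases that the 3 WT-Tag lists shared, 94.3% were under FLAG in all 3 K27M-Tag lists as well. Bases under FLAG in all 3 WT-Tag lists and in no K27M-Tag list came to 0.0271% of all bases of the members. Those under FLAG in all 3 K27M-Tag lists and in no WT-Tag list came to 13.0% of them.

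The cover differed along the range of H3K4me3 height. In the lowest height group, FLAG lay over nearly the whole member in K27M-Tag, with medians of 97.5%, 91.6% and 99.3%, against 46.9%, 65.1% and 62.1% for WT-Tag. In the highest height group the K27M-Tag medians were 41.6%, 33.9% and 44.2% and the WT-Tag medians 12.3%, 17.4% and 17%. Each height group separated the genotypes without overlap in cover and in height. The fall is in percent of a region that grows wider: the median H3K4me3 breadth in K27M-Tag was 829 bp ± 83.9 (SD, n = 3) in the lowest height group and 2679 bp ± 52 (SD, n = 3) in the highest. The bases under FLAG did not fall in K27M-Tag, with medians of 964, 1197, 1262 and 1147 bp from the lowest to the highest height group. In WT-Tag these medians were 597, 520, 444 and 436 bp. FLAG height changed little between height groups, with group means from 11 in the lowest to 9.21 times background in the highest for K27M-Tag, against 7.58 and 7.29 for WT-Tag. The highest FLAG summit lay a median of 219 bp ± 7.85 (SD, n = 3) from the highest H3K4me3 summit in the K27M-Tag cultures in the lowest height group, against 199 bp ± 5.13 (SD, n = 3) in the WT-Tag cultures. In the highest height group these distances were 983 bp ± 23.1 (SD, n = 3) and 1010 bp ± 41.8 (SD, n = 3), with overlapping ranges, so the genotypes did not separate there. Regions of the higher height groups are wider, which leaves more room for such distances.

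**Figure D2:**
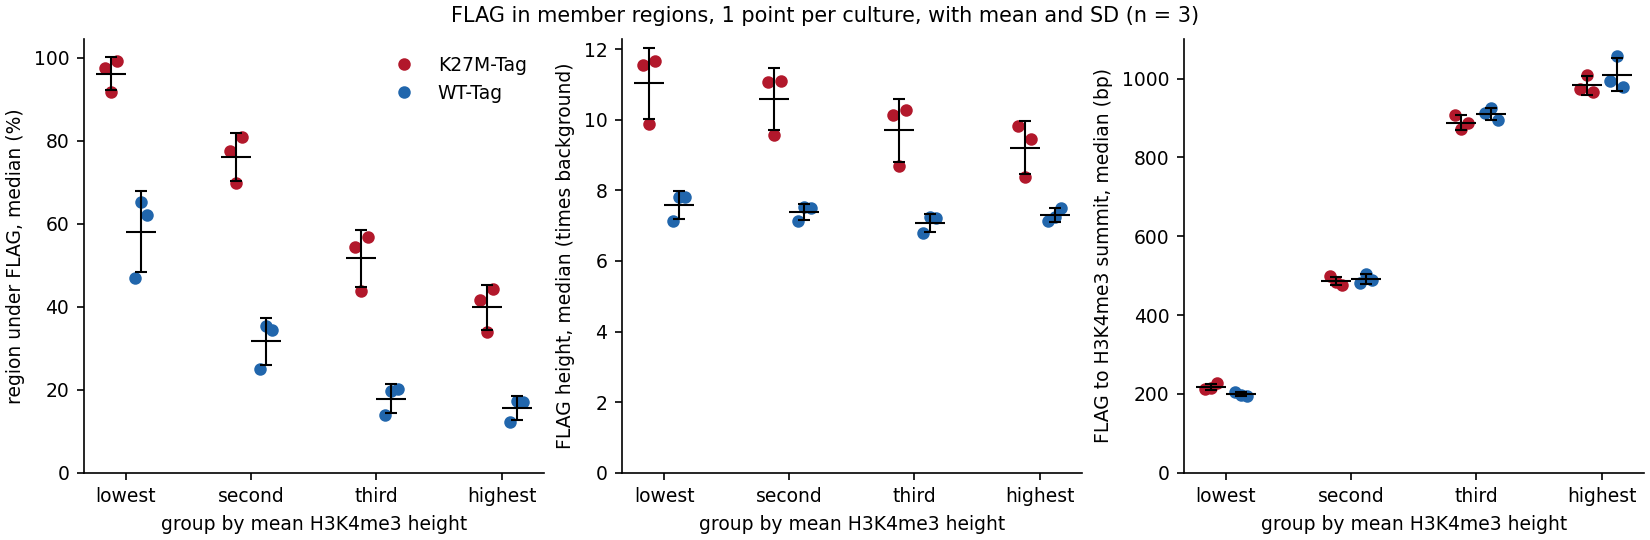
FLAG in the member regions by height group (x axis), 1 point per culture with the mean and SD of 3 cultures. Left, median percent of the region under FLAG. Middle, median FLAG summit height in times background. Right, median distance in bp between the highest FLAG and H3K4me3 summits. Cover falls from 96.1% to 39.9% for K27M-Tag and from 58.0% to 15.6% for WT-Tag, in regions that widen along the x axis, and the summit distance is alike in both genotypes in the highest height group.

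Around the H3K4me3 summit, FLAG had different shapes at weak and at strong members. In the lowest height group the share of members under a FLAG peak was highest at the summit itself, at 95.4% ± 2.49 (SD, n = 3) for K27M-Tag against 74.8% ± 6.81 (SD, n = 3) for WT-Tag. It fell to 47.5% ± 5.70 (SD, n = 3) and 20.4% ± 3.29 (SD, n = 3) at 1000 bp. In the highest height group it was 48.3% ± 8.88 (SD, n = 3) at the summit, 29.7% ± 5.81 (SD, n = 3) at 300 bp and 45.4% ± 3.82 (SD, n = 3) at 1000 bp in K27M-Tag. The WT-Tag cultures had the same dip at a lower level, with 18.8% ± 2.37 (SD, n = 3), 6.76% ± 1.25 (SD, n = 3) and 20.7% ± 2.66 (SD, n = 3). The share was lower at 300 bp than at 0 and at 1000 bp in all 6 cultures in the third and the highest height group. These shares are over all members of a group and do not show whether 1 member had FLAG at both positions.

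**Figure D3:**
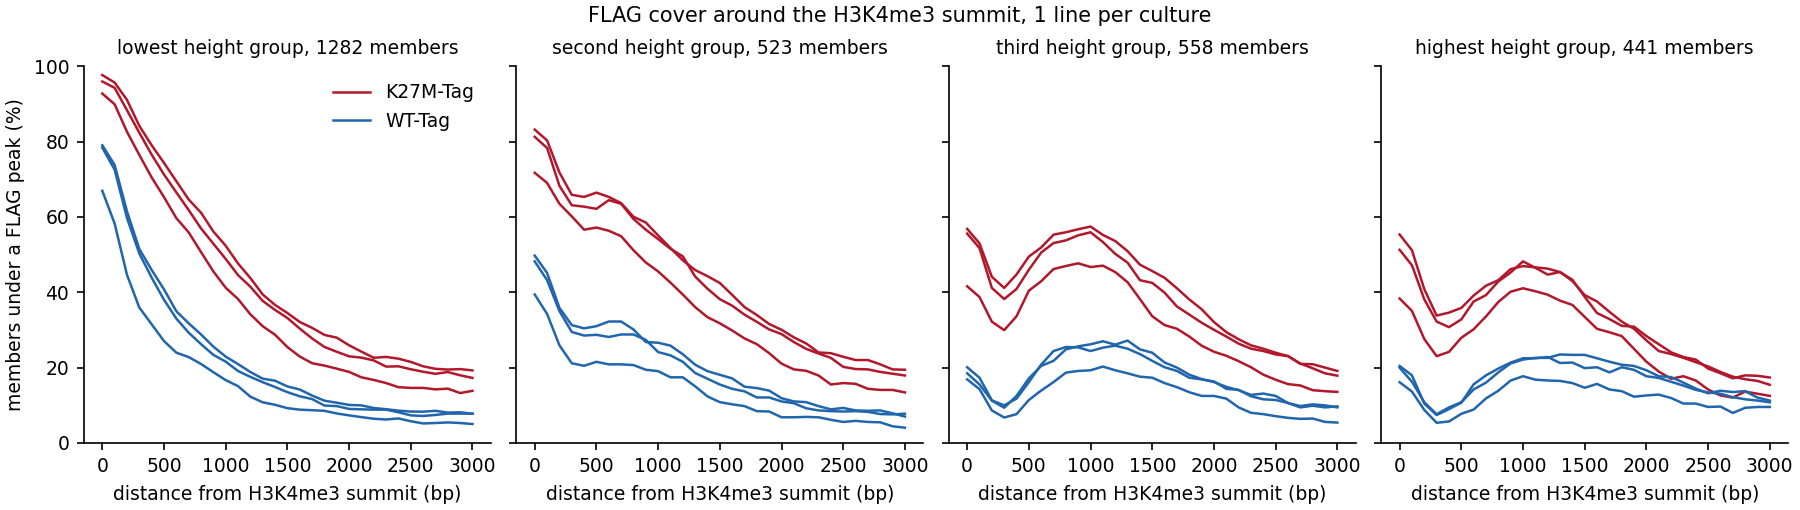
Percent of members under a FLAG peak (y axis) against the distance from the highest H3K4me3 summit of the same culture in bp, both sides pooled (x axis), 1 line per culture and 1 panel per height group. The lowest height group declines from the summit, while the third and highest height groups dip near 300 bp and rise again near 1000 bp in all 6 lines.

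FLAG summits of a member fell close together between cultures. The median distance between the highest FLAG summits of 2 cultures was 131 bp on average over the 3 pairs of K27M-Tag cultures, 142 bp within WT-Tag and 161 bp over the 9 pairs of different genotype. The pair ranges, 118 to 138 bp, 135 to 151 bp and 142 to 174.5 bp, overlapped between neighbouring kinds. In the K27M-Tag cultures 32.2% ± 2.59 (SD, n = 3) of the bases of FLAG peaks that touch a member lay outside it, and 20.3% ± 3.77 (SD, n = 3) in WT-Tag, so FLAG ran past the edge of the H3K4me3 region in both. In each FLAG list between 8 and 103 members shared their highest FLAG peak with another member.

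The change in FLAG breadth between genotypes was fitted over the 3176 shared regions with FLAG in all 6 lists, the 2804 members and 372 regions of 4000 bp or more (limma with trend, Benjamini-Hochberg adjusted p under 0.05). FLAG was wider in K27M-Tag at 1560 members and narrower at 0, or 55.6% of members against 59.9% of all regions fitted (0.0% narrower). An unadjusted p under 0.05 was reached by 1773 members. The median log2 change was 0.97 over the members and 1.04 over all fitted, and 2740 members had a positive change. All 3 K27M-Tag cultures exceeded all 3 WT-Tag cultures at 2077 members, 74.1%, against 76.6% of all fitted. FLAG height rose at 1722 members and fell at 7, 61.7% against 63.0% of all fitted (62.8% higher and 0.22% lower), with a median log2 change of 0.47 against 0.48. All 3 K27M-Tag heights exceeded all 3 WT-Tag heights at 1689 members, 60.2% against 61.6%. Of the 1729 members called for height, 196 had overlapping groups. The members are most of the regions fitted, so nearness to this background was given by its make-up. The other 372 regions, which are wider by the rule, were called wider in FLAG at 92.2% (median log2 change 1.92) and higher at 73.4% (median log2 change 0.53). The difference between them and the members was not tested. Since a region is a member only where each WT-Tag list has a peak, regions whose WT-Tag signal was under the limit of the lists are not among them.

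Centring each list on its median over these 3176 regions took away 1.12 of the log2 change in breadth and 0.52 of that in height, a shift that is largely the members' own. Relative to it, FLAG was wider in K27M-Tag at 292 members and narrower at 546, against 173 and 12 of the other 372 regions. It was higher at 117 members and lower at 245, against 25 and 18 of the other regions. Leaving out K27M-Tag replicate 1 or replicate 3 reduced the members called wider to 935 and 901. These were 33.3% and 32.1% of members, against 38.7% and 37.4% of all fitted. A wider background was made from 11907 FLAG regions of chromosomes 1 to 19 with a peak in all 6 FLAG lists, of which 2773 lay on members, 4068 on other H3K4me3 regions and 5066 on none. In that fit the FLAG regions on members were wider in 1579 cases and narrower in 2, 57.0% against 44.0% of all (43.5% wider and 0.563% narrower), with median log2 changes of 0.97 and 0.81. They were higher in 1487 and lower in 5, 53.8% against 39.5% of all (37.7% higher and 1.81% lower), with median log2 changes of 0.44 and 0.31. The 9134 FLAG regions off the members were called at 40.1% for breadth and 35.2% for height. After centring, the members' regions were wider in 312 (11.25%) and narrower in 217 (7.83%), against 7.03% and 12.47% of the 9134 regions off the members. They were higher in 444 (16.01%) and lower in 113 (4.08%), against 6.93% and 14.41% of those off the members. The direction of the members against the centre differed between these fits, which differ in measure as well as in background. The earlier fit counted FLAG bases inside the H3K4me3 region only, and this fit counted them over the whole FLAG region. Which of these made the difference was not tested. Leaving out K27M-Tag replicate 1 or 3 reduced the regions on members called for breadth to 940 and 888. These were 33.9% and 32.0% of them, against 24.5% and 23.3% of all FLAG regions fitted.

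The gain in FLAG breadth was not even over the members. The median log2 change was 0.67 in the lowest height group, 1.06 in the second, 1.40 in the third and 1.28 in the highest, with 42.0%, 63.5%, 70.3% and 67.3% called wider. Height ran the other way, with medians of 0.51, 0.50, 0.44 and 0.32 and 69.1%, 65.8%, 56.6% and 41.5% called in either direction. In the lowest height group 14.3% ± 7.88 (SD, n = 3) of members were at least 90% covered in WT-Tag and 63.5% ± 9.62 (SD, n = 3) in K27M-Tag. Breadth counts only bases inside the region, so it cannot rise past the region's length. In the lowest height group 40.2% ± 3.68 (SD, n = 3) of the bases of FLAG peaks lay outside the member in K27M-Tag. In WT-Tag it was 18.4% ± 4.47 (SD, n = 3). In the highest height group these shares were 24.0% and 27.4%, with overlapping ranges. The difference between height groups was not tested.

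**Figure D4:**
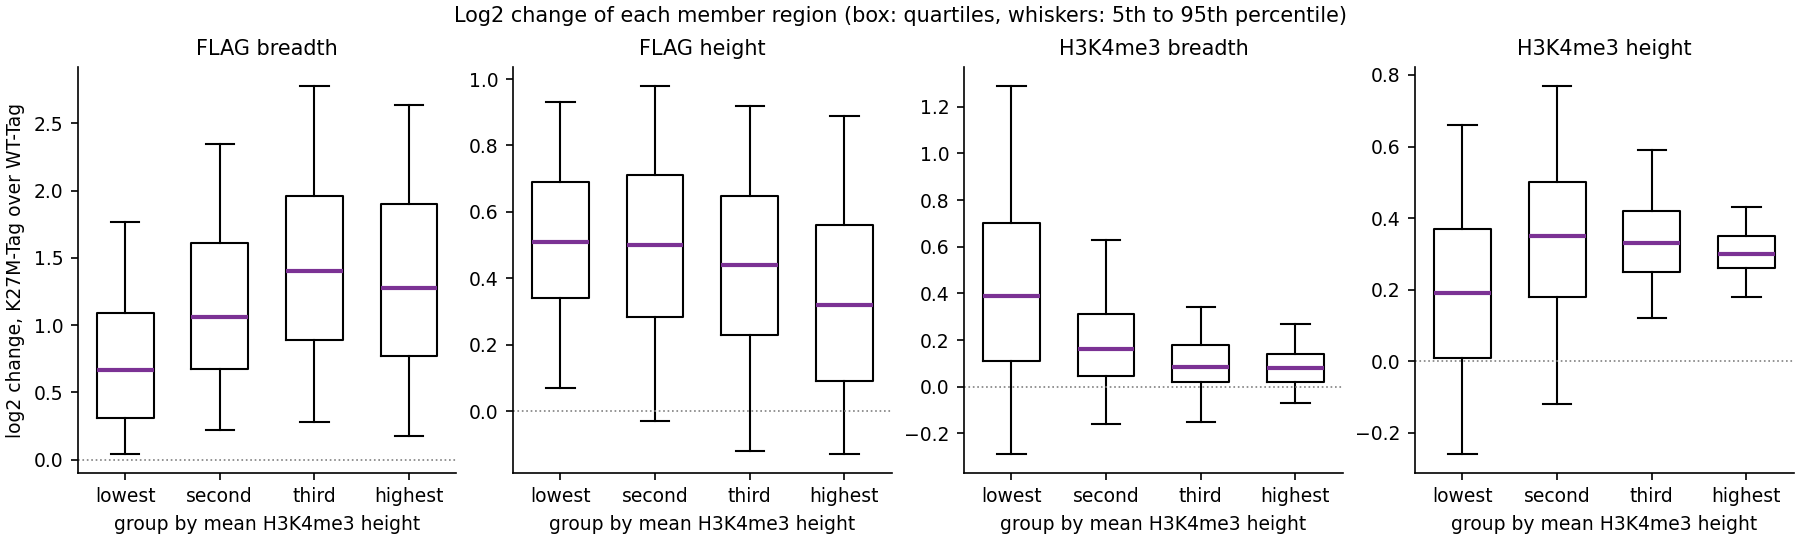
Log2 change of K27M-Tag over WT-Tag for each member by height group (x axis), with boxes for the quartiles, a purple line at the median and whiskers to the 5th and 95th percentiles. FLAG breadth, which counts only bases inside the region, rises from a median of 0.67 to 1.28 between the lowest and the highest height group. FLAG height falls from 0.51 to 0.32, and H3K4me3 breadth falls from 0.39 to 0.08.

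Single members show the range. The member with the highest FLAG rank throughout was chr10:84314392-84315393, in the lowest height group, whose lowest percentile of FLAG score over the 6 lists was 99.7. FLAG covered 1002, 1002 and 1002 bp of it in K27M-Tag against 973, 1002 and 1002 bp in WT-Tag. Its FLAG height was 22.2, 17.1 and 21.9 times background in K27M-Tag against 13.3, 15.7 and 13.8 in WT-Tag. The groups did not overlap in height (log2 change 0.51 ± 0.15 SE, limma adjusted p = 0.00248). Another of the 5 with the highest FLAG rank, chr3:88031467-88035685, had FLAG heights of 18.7, 18.3 and 16.4 for K27M-Tag against 15.9, 19.1 and 18.9 in WT-Tag, which overlap (log2 change -0.01 ± 0.15 SE, limma adjusted p = 0.943). All 5 lay in the lowest height group. A pair of them, chr8:15002127-15003384 and chr8:15003405-15005564, lay 20 bp apart and shared FLAG peaks.

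The largest gain in FLAG breadth was at chr19:5730703-5732275, a member of the highest height group with mean H3K4me3 height of 83.6 times background. FLAG covered 604, 787 and 1095 bp in K27M-Tag against 31, 12 and 97 bp in WT-Tag, where the FLAG peak only reached over the edge of the region (log2 change 4.61 ± 0.85 SE, limma adjusted p = 0.00627). H3K4me3 there covered 1548, 1489 and 1512 bp against 1444, 1479 and 1433 bp (log2 change 0.06 ± 0.05 SE, limma adjusted p = 0.43). The 4 members ranked next in FLAG breadth, with log2 changes from 3.50 to 4.03, also had little FLAG in 1 or more WT-Tag cultures, with a lowest value of 13, 38, 34 and 41 bp. The largest gain in FLAG height was at chr2:84475971-84476980, a weak H3K4me3 region, at 16.1, 13.5 and 15.3 times background in K27M-Tag against 7.44, 4.93 and 5.71 in WT-Tag (log2 change 1.33 ± 0.18 SE, limma adjusted p = 2.64e-10). The largest loss was at chr5:31222918-31225059, at 6.33, 6.89 and 5.83 in K27M-Tag against 10.4, 8.99 and 8.71 in WT-Tag (log2 change -0.56 ± 0.19 SE, limma adjusted p = 0.00666). The 5 members with the largest loss of FLAG height all lay in the third height group.

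**Figure D5:**
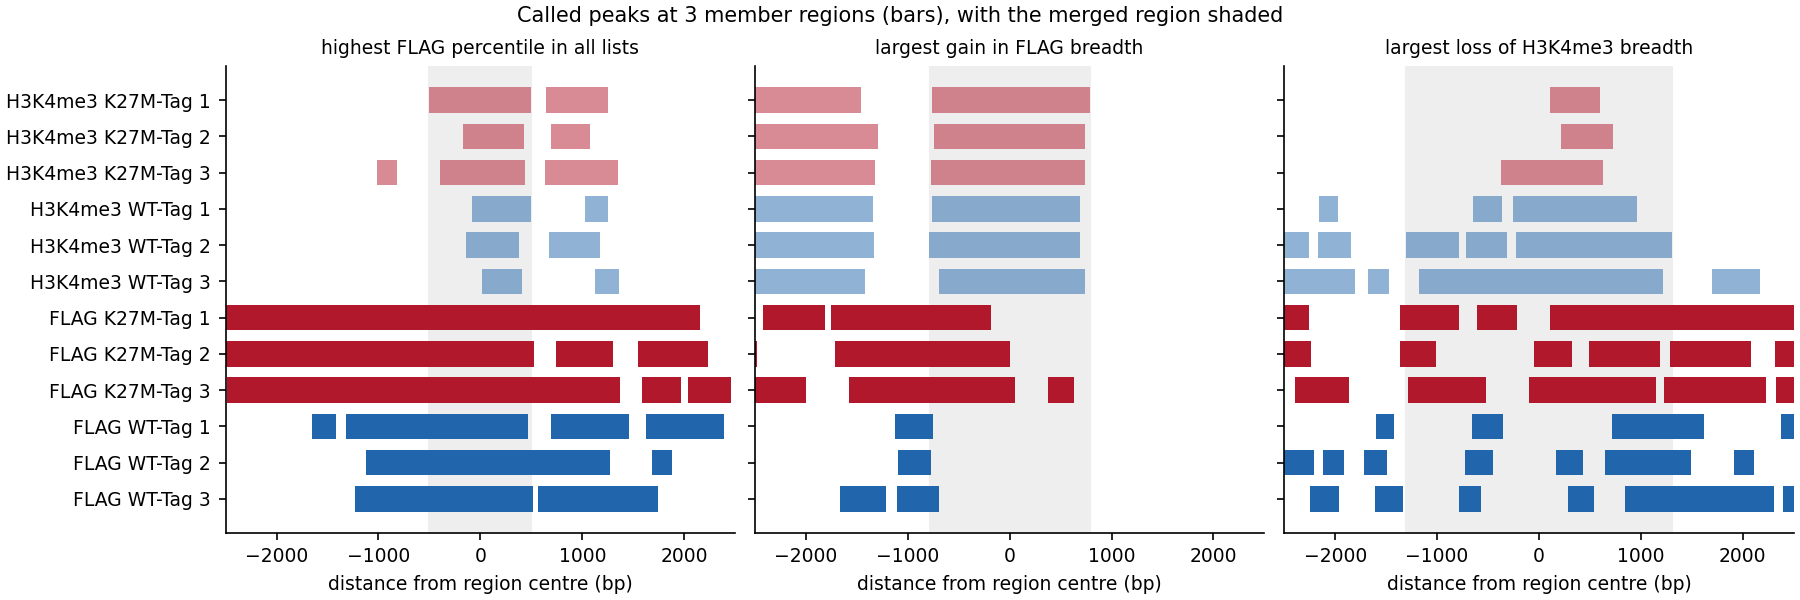
Called peaks of the 12 lists (bars, 1 row per list) at 3 members, against the distance from the centre of the merged region in bp, with the region shaded. Left, chr10:84314392-84315393, where FLAG spans the region in nearly all lists. Middle, chr19:5730703-5732275, where WT-Tag FLAG covers 31, 12 and 97 bp at the edge. Right, chr7:86658710-86661327, where H3K4me3 covers more in WT-Tag and FLAG covers more in K27M-Tag.

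By median log2 change, H3K4me3 changed less than FLAG at the members. The regions were drawn from the H3K4me3 peaks, so H3K4me3 breadth had less room to rise inside them. The members had a median length of 1676 bp and a median H3K4me3 breadth of 1301 bp. The shares called also come from fits over different sets of regions. Fitted over the 21864 shared regions, H3K4me3 breadth was greater in K27M-Tag at 251 members and smaller at 23. This was 9.77% against 8.06% of all (7.51% wider and 0.549% narrower). An unadjusted p under 0.05 was reached by 929 members. The median log2 change was 0.16 over the members and 0.14 over all. Height rose at 198 members and fell at 6, 7.28% against 11.4% of all (10.9% higher and 0.476% lower), with median log2 changes of 0.29 and 0.33. All 3 K27M-Tag cultures stood above all 3 WT-Tag cultures in breadth at 904 members, 32.2% against 37.8% of all, and in height at 768, 27.4% against 33.4%. Centring removed 0.14 of the log2 change in breadth and 0.39 of that in height. Relative to it, 81 members were wider (2.89%) and 49 narrower (1.75%), against 1.96% and 1.13% of all regions fitted. In height 29 members were higher (1.03%) and 134 lower (4.78%), against 2.37% and 4.56% of all. The count for breadth hung on single libraries, at the members as over all regions fitted. Without K27M-Tag replicate 1, 2 or 3, 13, 135 or 30 members were called. These were 0.464%, 4.81% and 1.07% against 0.398%, 3.00% and 0.910% of all. Without WT-Tag replicate 3, 127 were called, 4.53% against 3.21% of all. For height 43 or 41 were called without K27M-Tag replicate 1 or 2, 1.53% and 1.46% against 2.53% and 2.93% of all. Without WT-Tag replicate 2 or 3, 486 or 53 were called, 17.3% and 1.89% against 24.3% and 4.04% of all.

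The gain in H3K4me3 breadth was largest at weak members, as at weak regions that are no members. The median log2 change over members was 0.39, 0.16, 0.09 and 0.08 from the lowest to the highest height group, and 0.40, 0.20, 0.10 and 0.09 over the other regions of the same height groups. In height the members of the lowest height group lay below the other regions of that group, with a median log2 change of 0.19 against 0.33 and 7.80% against 22.5% called. The second height group went the same way, with 0.35 against 0.42 and 14% against 23.4% called. In the third height group the shares called were 5.38% and 5.36%, and in the highest 0.227% and 0.250%. The difference between members and other regions was not tested.

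Local background moved with genotype. The background at the H3K4me3 summit exceeded 1.5 times that of the list at 11.3%, 13.2% and 13.9% of members for K27M-Tag, against 33.7%, 34.4% and 33.1% for WT-Tag. In the FLAG lists these shares were 12.4% ± 2.81 (SD, n = 3) and 22.0% ± 5.74 (SD, n = 3). At the 733 members without such a background in any of the 12 lists, the median log2 change was 0.96 for FLAG breadth, 0.52 for FLAG height, 0.21 for H3K4me3 breadth and 0.29 for H3K4me3 height, each as large as or close to the value over all members.

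The calls for FLAG and H3K4me3 met at part of the members. FLAG was both wider and higher in K27M-Tag at 1094 members, 70.1% of those with wider and 63.5% of those with higher FLAG, and neither at 616. FLAG and H3K4me3 were both wider at 167 members, which is 66.5% of the 251 with wider H3K4me3 and 10.7% of the 1560 with wider FLAG. Over all members, FLAG was wider at 55.6% and H3K4me3 at 8.95%. Both were higher at 152 members, 76.8% of those with higher H3K4me3 and 8.83% of those with higher FLAG, and 25 gained in all 4 measures. Over all members, FLAG was higher at 61.4% and H3K4me3 at 7.06%. Across the 2804 members the log2 change in FLAG breadth and that in H3K4me3 breadth had a Spearman rho of -0.07 and a Pearson r of -0.07, as a description across regions that share libraries. In the lowest height group rho was 0.19 and r 0.17.

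The largest gain in H3K4me3 breadth was at chr2:26219993-26222084, at 1138, 1734 and 1596 bp in K27M-Tag against 190, 302 and 190 bp in WT-Tag (log2 change 2.72 ± 0.25 SE, limma adjusted p = 0.00513). FLAG covered 2092, 2092 and 1850 bp of it against 1886, 1660 and 1673 bp (log2 change 0.21 ± 0.12 SE, limma adjusted p = 0.175), so FLAG was wide in both genotypes. At chr2:26185760-26187590, a member 32.4 kb away, H3K4me3 height was 7.81, 4.33 and 5.43 times background in K27M-Tag against 11.4, 10.7 and 14.8 in WT-Tag (log2 change -1.10 ± 0.22 SE, limma adjusted p = 5.22e-05). This was the largest loss of H3K4me3 height among the members. The largest gain in height, at chr14:105987927-105991848, was 62.8, 67.9 and 32.6 in K27M-Tag against 19.4, 23.1 and 13.0 in WT-Tag (log2 change 1.53 ± 0.22 SE, limma adjusted p = 1.7e-09). FLAG height there was 7.91, 6.89 and 4.72 against 5.83, 6.67 and 6.01, with overlapping groups.

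Some members gained both signals together. At chr2:17951911-17956175 H3K4me3 covered 3991, 3848 and 4237 bp in K27M-Tag against 1606, 1184 and 1070 bp in WT-Tag (log2 change 1.67 ± 0.14 SE, limma adjusted p = 0.00462), and FLAG covered 1971, 1340 and 1563 bp against 258, 314 and 417 bp (log2 change 2.31 ± 0.25 SE, limma adjusted p = 0.00125). Both groups were apart in both marks. At others the signals went in opposite directions. At chr7:86658710-86661327 H3K4me3 height was 6.01, 6.50 and 5.71 in K27M-Tag against 9.0, 12.1 and 14.5 in WT-Tag (log2 change -0.94 ± 0.22 SE, limma adjusted p = 0.000824), while FLAG covered 2120, 1399 and 2084 bp against 889, 1199 and 939 bp (log2 change 0.88 ± 0.22 SE, limma adjusted p = 0.0181). Its H3K4me3 breadth, 491, 513 and 1004 bp against 1494, 2462 and 2393 bp, was the largest loss of breadth among the members (log2 change -1.71 ± 0.31 SE, limma adjusted p = 0.0277). That call was lost without K27M-Tag replicate 1, K27M-Tag replicate 2 or WT-Tag replicate 3, with limma adjusted p up to 0.107, and the call for FLAG breadth there without 4 of the 6 FLAG libraries in turn, with limma adjusted p up to 0.0683. The other calls given with an adjusted p for single members passed without each library in turn.

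The limit of 4000 bp cuts a continuous range. Just under it lay chr13:23774501-23778752, with FLAG over 3124, 3277 and 3598 bp in K27M-Tag against 1016, 864 and 677 bp in WT-Tag, and chr7:26003344-26007495, with 2279, 1663 and 2243 bp and 327, 849 and 964 bp. Just over it lay chr13:58227164-58231609, with 1055, 528 and 1399 bp and 307, 391 and 487 bp, and chr4:94714878-94719039, with 2668, 1390 and 3066 bp and 47, 482 and 400 bp. FLAG covered more in each K27M-Tag culture than in any WT-Tag culture at all 4 regions, on both sides of the limit.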

How the data were processed

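The authors deposited 1 list of peaks per library, and replicates were not pooled in them. BWA 0.7.17-r1188, MACS2 2.2.7.1 and bedtools 2.29.2, and the builds mm9 and dm6, are named in the submitters' processing notes, without roles, and mm9 stands in the deposited peak names. Scores, −log10 p and −log10 q values and fold enrichments, each fold being a ratio of a summit to its local background, are the authors' values as deposited. The composite input of each genotype was not analysed here, and whether it served as the control is not given in the sources used here.

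From the deposited fold and p of each peak a whole pileup and a background were recovered, within a relative error of 0.0001, for 100.0% of autosomal peaks. The most common background of a list is its background coverage. The breadth and height of 6 lists were compared with limma 3.58.1 (R 4.3.3, trend, Benjamini-Hochberg, threshold 0.05), with lists prepared in Python 3.11.15. The SEs and p-values rest on a spread between these cultures that limma moderated toward a trend over all regions fitted. They are not the spread of a single region. Of the 204 members called for H3K4me3 height, 15 had overlapping groups. The code was tested on simulated lists. Regions named are, by rule, the 5 with the highest lowest FLAG percentile, up to 5 per measure and direction with the largest called change, and 2 on each side of 4000 bp. The members, lists and rules were chosen with earlier results of these data known. The fit over all FLAG regions and the height groups were added after the lists had been seen. Alternatives were the replicate number as a block, centring, no trend, leaving out each library, equal list sizes, the highest-scoring 50% of peaks, joined gaps and stricter overlap.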

Additional observations from a re-analysis of the deposited data

Results flagged for a closer look

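Chromosome X was outside every comparison, and 3 of its 656 shared H3K4me3 regions under 4000 bp met the rule for the members. No control without the tag was used here. FLAG overlapped 13.9% to 23.8% of the shared X regions in the K27M-Tag lists and 1.52% to 3.66% in the WT-Tag lists, against 49.7% to 62.2% and 18.8% to 25.4% of the autosomal ones.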

How the results depend on the processing

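There were 2804 member regions, 599 with the highest-scoring 50% of peaks and 2809 to 3793 without one FLAG library. Members as a percent of the lowest minus that of the highest height group, 16.1 points, came to 13.6 with equal list sizes, 11.1 with the highest-scoring 50% of FLAG peaks alone and 1.34 with the highest-scoring 50% of both kinds of list, to 36.5, 58.0 and 52.4 within the second, the third and the highest of 4 breadth groups, and to 15.8 to 17.8 without one FLAG library. The lowest breadth group held too few strong regions for a value. The others rest on small cells too. In the second, 3 of 205 regions of the highest height group were members. In the third and the highest breadth group, 100 of 158 and 24 of 38 regions of the lowest height group were members. Members called for H3K4me3 breadth, 274 of 2804 (9.77%), came to 92 with the replicate number as a block, 130 after centring and 164 without trend. Without one library they came to 13 to 355, or 0.464% to 12.7% of members against 0.398% to 10.7% of all fitted. Where members were rebuilt, 39 of 599 (6.51%, against 4.50% of all fitted) were called with the highest-scoring 50%. With equal list sizes 153 of 2025 were called (7.56%, against 6.55% of all fitted). Members called for FLAG breadth, 1560 of 2804 (55.6%), came to 838 after centring, 29.9% against 32.2% of all fitted. Without one library they came to 901 to 1546, 32.1% to 55.1% against 37.4% to 59.3% of all fitted. Where members were rebuilt, 390 of 599 (65.1%, against 70.6% of all fitted) were called with the highest-scoring 50%. With equal list sizes 1046 of 2025 were called (51.7%, against 56.0% of all fitted). Members called for FLAG height, 1729, came to 362 after centring, 12.9% against 12.8% of all fitted. Those called for H3K4me3 height, 204, came to 41 to 486 without one library, 1.46% to 17.3% against 2.53% to 24.3% of all fitted. In the fit over all FLAG regions, centring left 529 regions on members called for breadth and 557 for height. These were 19.1% and 20.1%, against 19.4% and 21.0% of all fitted. Leaving out one library left 888 to 1624 for breadth, 32.0% to 58.6% against 23.3% to 45.4% of all fitted. After centring the median log2 change over members turned to -0.15 for FLAG breadth, -0.046 for FLAG height and -0.10 for H3K4me3 height. Centring removes what all fitted regions share. The excess of K27M-Tag in members with more than 1 FLAG peak, 7.57 points, turned to -2.45 with equal list sizes, and the cause was not tested. Same-numbered cultures of the 2 genotypes deviated together only weakly (correlation -0.04 to 0.18), so the numbers are not taken to pair them, and the block moved no other member count by over 1.5 times. Of 315 values of named regions under alternatives, 263 kept their side of the threshold, 52 lost it and 0 turned direction. The lists hold only peaks past the caller's limit, so FLAG under that limit could not be seen, and the limit moves with depth and control.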

Other observations

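Members were spread over all 19 autosomes, from 10.5% of the shared regions under 4000 bp on chromosome 16 to 17.6% on chromosome 11. Members in the lowest height group lay nearer to a stronger shared region than regions of that height group without FLAG, with median distances of 27.2 kb and 52.8 kb. Regions with FLAG in other combinations of lists lay between, at 41.1 kb. Those with FLAG in the 3 K27M-Tag lists only lay at 52.7 kb, near the regions without FLAG. A stronger region lay within 5 kb of 16.1% of these 1282 members and also of 16.1% of the 1594 regions with FLAG in other combinations of lists. It did so at 13.9% of the 496 regions with FLAG in the 3 K27M-Tag lists only and at 9.32% of the 1867 regions without FLAG. These distances are descriptions of the regions, with no test.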
